A study of Mus musculus with 12 samples.

Results

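The S100 genes encode a family of small calcium-binding proteins, and 10 of them were followed here in 3T3 cells, a mouse fibroblast line. They are S100a1, S100a3, S100a4, S100a5, S100a6, S100a10, S100a11, S100a13, S100a16 and S100b, taken by symbol from the 32544 rows of the deposited table. Bulk RNA was sequenced in 4 groups of 3 libraries. Untreated cells received no extracellular vesicles (EVs, membrane-bound particles that cells release). Every other group was exposed for 24 h to EVs of MDA-MB-468 cells, derived from human breast cancer, in 1 of 3 forms. These donors were a control line (shCon), a line with CRIPTO knocked down (shCr) and a line that overexpressed CRIPTO (CrOE), CRIPTO being a cell-surface protein of development and cancer. The amount of EVs and the extent of knockdown or overexpression are not given in the sources used here. No label says that the 3 libraries of a group came from separate cultures, so p-values measure only the spread between these samples.

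S100 proteins carry calcium-binding loops called EF hands and mostly act as dimers. Calcium binding exposes a surface through which they hold partners such as annexins, which bind membranes, and the heavy chain of non-muscle myosin. Several are also released from cells and act on receptors such as RAGE, the product of Ager. S100a4 is widely used as a fibroblast marker and is linked to cell motility.

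Libraries held 25960054 to 37774020 estimated counts, and 14279 genes passed a filter on low counts. Of the 10 S100 genes, 9 passed and S100b did not. Levels are CPM, counts scaled to library size, with the TMM correction for composition. In a principal component analysis the 3 libraries with CrOE EVs stood apart at 109 to 113 on the first component (73.65% of the variance), against -41.8 to -29.7 in the other 9. Library 1 with shCr EVs stood apart from libraries 2 and 3 on the third component (42.01 against 1.47 and -5.05). Its share of mitochondrial transcripts was 0.622%, against 1.44% and 1.70%. The share was also low in Untreated library 1 (0.495%, against 1.64% and 0.991%) and in CrOE library 2 (0.693%, against 1.32% and 1.44%). Tdgf1, the mouse gene of CRIPTO, had 0 to 3 counts in every library, and no difference in it was detectable at this depth.

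Fibroblast markers summed to 15225 to 16212 CPM in untreated cells, 17313 to 17484 with shCon EVs, 11857 to 13534 with shCr EVs and 4763 to 4951 with CrOE EVs. Col1a1 and Col1a2 made up most of the sum in untreated cells, and mean Col1a1 went from 4535 CPM there to 6557 with shCon EVs. All 9 of 9 fibroblast markers fell with CrOE EVs relative to untreated cells, Col1a1 and Dcn among them, against 37.0% of all tested genes (edgeR's quasi-likelihood test, Benjamini-Hochberg adjusted p under 0.05). By the same test, 3 markers fell and 2 rose with shCon EVs, against 20.2% and 18.0% of all tested genes. With shCr EVs 5 markers fell and 2 rose, against 18.8% and 18.4%. In bulk RNA, fewer cells of a type and less RNA per cell cannot be told apart. The 7 epithelial markers summed to 0.549 to 0.996 CPM outside the CrOE group and to 1.99 to 2.82 CPM within it, with Epcam at 0 counts in every library. The 6 leukocyte markers summed to 48.6 to 59.3 CPM in untreated cells, 82.0 to 92.5 with shCon EVs, 129 to 193 with shCr EVs and 4.57 to 5.96 with CrOE EVs. Ptprc had 0 to 7 counts and Adgre1 0 or 1 in every library. Most of this sum outside the CrOE group was Lyz2, with means of 46.9, 78.0, 146 and 1.25 CPM in untreated, shCon, shCr and CrOE groups. Cd68 (5.64, 5.60, 5.56 and 3.05 CPM) and Csf1r (2.43, 2.11, 2.20 and 1.00 CPM) changed little over the first 3 groups. Schwann or melanocyte, chondrocyte, adipocyte and endothelial markers, lineages of which several express S100b, summed to 2.80 to 6.82, 20.7 to 49.7, 1.74 to 26.8 and 0.589 to 2.56 CPM, with Sox10 at 0 counts throughout. The chondrocyte and adipocyte sums were mostly Sox9 and Fabp4, at means of 42.9 and 24.2 CPM in untreated cells. In untreated, shCon, shCr and CrOE groups the adipocyte sum averaged 24.3, 14.2, 13.1 and 2.00 CPM. In the same order the chondrocyte sum averaged 43.4, 47.6, 44.3 and 23.0 CPM. The endothelial sum averaged 0.707, 1.21, 1.23 and 2.42 CPM. The Schwann or melanocyte sum averaged 3.18, 4.85, 6.68 and 3.48 CPM. The part of these marker levels in the S100 results was not tested.

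Of the 10 S100 genes, 9 lie on chromosome 3, in the RefSeq order S100a1, S100a13, S100a16, S100a3, S100a4, S100a5, S100a6, S100a11 and S100a10, and S100b lies on chromosome 10 (GRCm38.p6; the submitters' processing notes name mm39, so the coordinates here are not those of the authors' files). S100a1 and S100a13 point away from each other, with starts 105 bases apart in the RefSeq promoter table. The table held 13 windows for 9 of the 10 members, and none for S100a10. The 250 bases before the start are shown for S100a4, the tested member with the largest fall with shCon and with CrOE EVs. They are also shown for S100a3, the member that rose with CrOE EVs, and for the abundant S100a6 and S100a11. All are on the plus strand, at chr3:90603520-90603769 for S100a4, chr3:90599964-90600213 for the last of the 4 S100a3 windows, chr3:90612644-90612893 for S100a6 and chr3:93520246-93520495 for S100a11. Capitals mark matches to the motifs searched on both strands.
S100a4: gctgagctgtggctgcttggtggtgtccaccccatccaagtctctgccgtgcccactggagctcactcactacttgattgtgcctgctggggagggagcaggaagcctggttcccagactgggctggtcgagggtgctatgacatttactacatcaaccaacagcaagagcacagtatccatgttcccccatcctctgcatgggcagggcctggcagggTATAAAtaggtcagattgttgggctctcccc
S100a3: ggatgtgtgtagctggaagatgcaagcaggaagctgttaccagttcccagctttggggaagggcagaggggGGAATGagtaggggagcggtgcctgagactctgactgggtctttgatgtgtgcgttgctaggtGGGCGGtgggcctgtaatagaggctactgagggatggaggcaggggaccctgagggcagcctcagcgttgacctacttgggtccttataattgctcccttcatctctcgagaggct
S100a6: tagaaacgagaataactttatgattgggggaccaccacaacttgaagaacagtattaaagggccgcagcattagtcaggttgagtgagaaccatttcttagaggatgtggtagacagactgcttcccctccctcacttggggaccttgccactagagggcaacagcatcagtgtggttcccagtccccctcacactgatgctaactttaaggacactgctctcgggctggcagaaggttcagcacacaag
S100a11: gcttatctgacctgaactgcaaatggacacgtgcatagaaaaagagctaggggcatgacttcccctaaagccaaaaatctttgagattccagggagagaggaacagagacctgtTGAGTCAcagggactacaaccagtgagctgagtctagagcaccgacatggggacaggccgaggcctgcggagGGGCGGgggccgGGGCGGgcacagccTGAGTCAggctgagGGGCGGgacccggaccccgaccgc
No 2 of the matches overlapped. The letters TATAAA, those of the TATA box, occur in the S100a4 window at position -31, counted back from the start, and in another S100a3 window at -52. Among 32851 promoter windows of this length, 12.4% hold it. For the AP-1 motif the letters TGANTCA were searched, where N stands for any base. They occur at -136 and -38 of S100a11 (each TGAGTCA) and at -192 of 1 of the 2 S100a16 windows (TGAATCA), against 6.75% of all windows. The GC box, searched as GGGCGG, occurs at -64, -52 and -24 of S100a11, at -116 of the S100a3 window shown and at -30 of S100a16, against 32.7% of all windows. The TEAD motif, searched as GGAATG, occurs at -179 of the S100a3 window shown, against 12.6% of all windows. Of the 13 member windows, TATAAA occurs in 2, TGANTCA in 2, GGGCGG in 3 and GGAATG in 1. Whether these counts differ from the shares of all windows was not tested. The S100a6 window holds no match, which says only that these letters are not in it.

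Per kilobase of annotated exon, S100a4 was the most abundant member in untreated cells at 1652 ± 155 CPM per kb (SD, n = 3). S100a11 followed at 1059 ± 49.96, S100a6 at 538 ± 34.7 and S100a10 at 201 ± 16.9 CPM per kb. S100a13 (15.5 ± 0.383), S100a1 (8.56 ± 0.309) and S100a16 (1.64 ± 0.234 CPM per kb) came next, each apart from its neighbour by more than its SD. S100a5 (0.579 ± 0.415), S100a3 (0.285 ± 0.0535) and S100b (0.0835 ± 0.0869 CPM per kb) were lowest, and S100a5 and S100a3 differed by less than the SD of S100a5. The annotated exons of S100a3 add up to 5660 bases over several transcripts, which lowers its value per kb. With CrOE EVs the order was S100a11 (191 ± 4.18 CPM per kb), S100a6 (156 ± 6.74), S100a4 (77.4 ± 5.93) and S100a10 (55.0 ± 2.99), so S100a4 came behind S100a11 and S100a6. The lowest members with CrOE EVs were S100a3 (0.583 ± 0.0666), S100a5 (0.242 ± 0.297), S100a16 (0.114 ± 0.0318) and S100b (0.0126 ± 0.0218 CPM per kb), and the SD of S100a5 exceeded its mean.

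**Figure D1:**
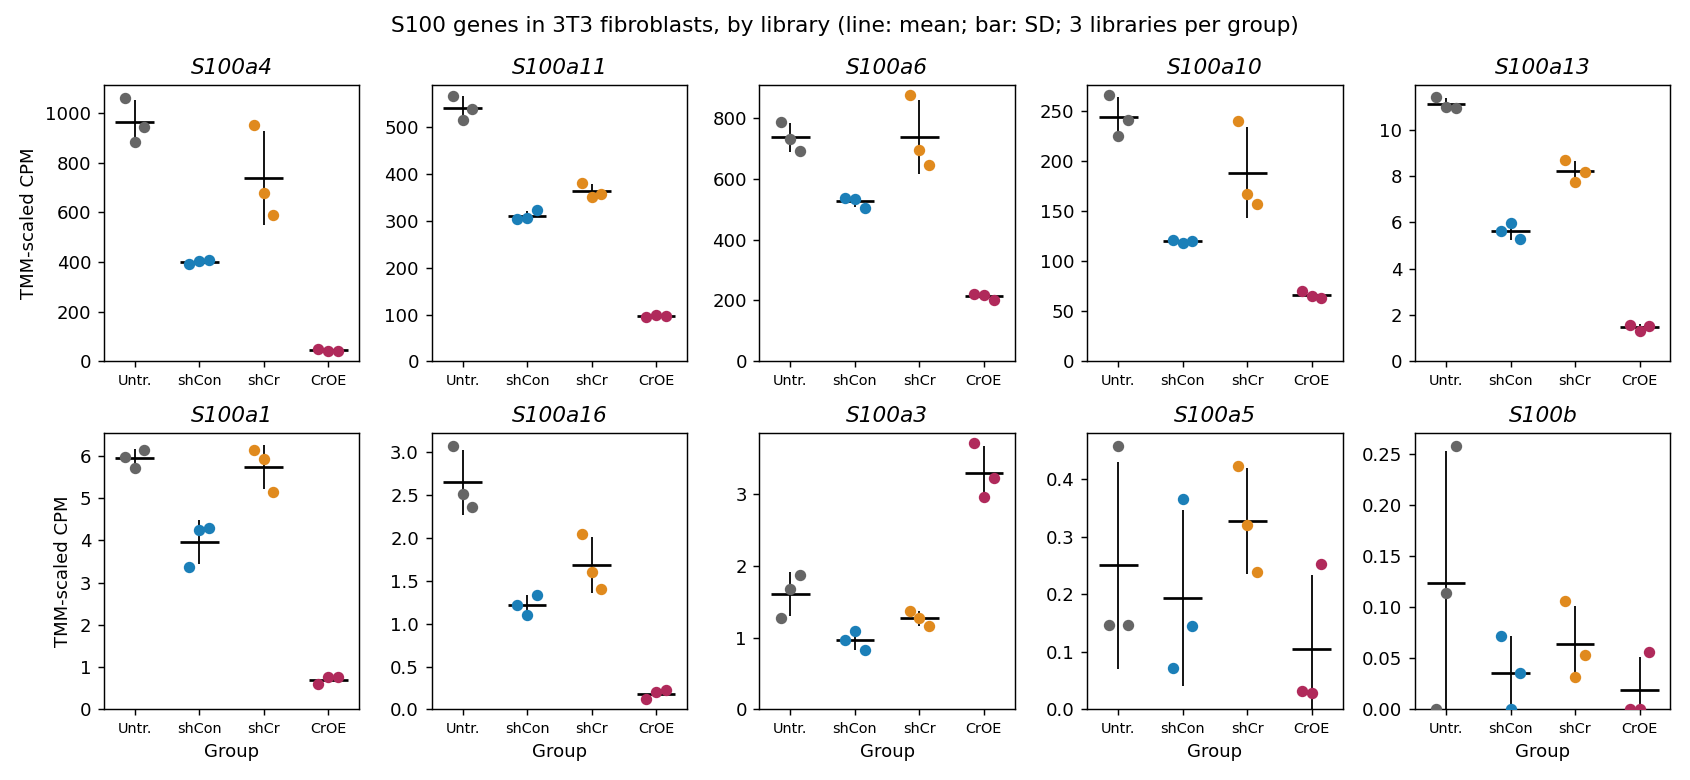
TMM-scaled CPM (linear axis from 0, a scale of its own per gene) of the 10 S100 genes in the 4 groups, with a point per library, a line at the mean and a bar of 1 SD cut off at 0. In 7 genes the 3 CrOE points lie below all others, while in S100a3 they lie above, and S100a5 and S100b rest on 12 counts or fewer per library.

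Most S100 transcripts were lowest with CrOE EVs and lower with shCon EVs than in untreated cells. With shCr EVs most lay nearer to untreated than to shCon levels on the log2 scale, S100a3 and S100a13 only slightly. S100a11 (-0.57 from untreated, 0.22 from shCon) and S100a16 (-0.66 and 0.46) lay nearer to shCon levels. With shCon EVs 8 of the 9 tested S100 genes fell, where 20.2% of all tested genes fell (edgeR's quasi-likelihood test, Benjamini-Hochberg adjusted p under 0.05). With shCr EVs 5 of 9 fell, against 18.8% of all tested genes. That count was 2 without Untreated library 1, shCr library 2 or shCr library 3, and 3 without Untreated library 3 or in a model of only these 2 groups. With CrOE EVs 7 of 9 fell and S100a3 rose, against 37.0% and 36.7% of all tested genes. All libraries of the EV group lay below all untreated ones in 8, 3 and 7 of the 9 genes with shCon, shCr and CrOE EVs, against 27.7%, 21.1% and 38.8% of all tested genes, and above them in S100a3 alone with CrOE EVs, against 38.8%. The median log2 fold change of the 9 genes was -0.80 with shCon EVs, -0.38 with shCr EVs and -2.47 with CrOE EVs, beside medians of 0.0069, 0.020 and 0.0078 over all tested genes. These comparisons share the untreated libraries and are not independent of each other.

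**Figure D2:**
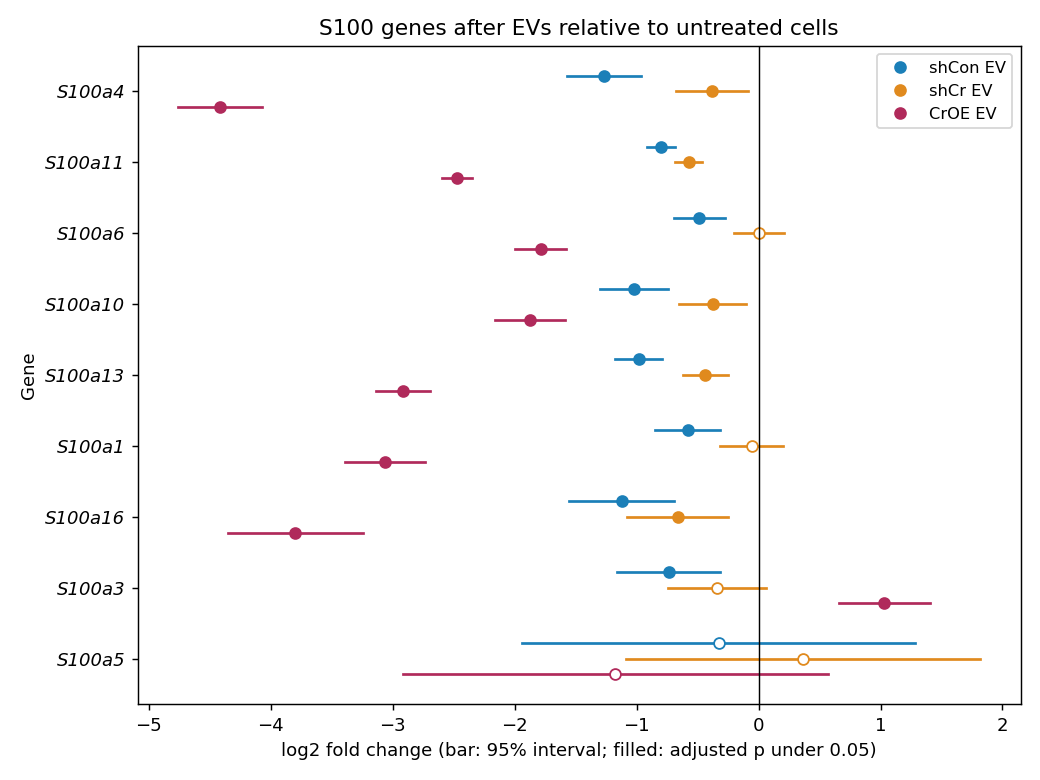
Log2 fold change (horizontal axis) of each tested S100 gene (vertical axis) relative to untreated cells, with its 95% interval, for the 3 EV groups; filled points have an adjusted p under 0.05. S100a4 spans -0.38 to -4.42, S100a3 is to the right of 0 with CrOE EVs at 1.03, and the intervals of S100a5 cross 0 throughout.

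S100a4, whose protein binds the myosin heavy chain and promotes motility, stood at 1063, 884 and 946 CPM in untreated cells. It stood at 391, 403 and 409 CPM with shCon EVs, at 952, 678 and 591 with shCr EVs and at 49.1, 43.8 and 42.6 with CrOE EVs. The shCon and CrOE libraries lay below every untreated library, and the highest shCr library lay within the untreated range. S100a4 fell 2.41-fold with shCon EVs (log2 fold change -1.27, SE 0.14, adjusted p = 1.59e-05, quasi-likelihood test of edgeR, Benjamini-Hochberg adjusted) and 21.3-fold with CrOE EVs (-4.42, SE 0.16, adjusted p = 4.33e-11). Of all tested genes, 2.65% and 1.68% had a lower log2 fold change in these comparisons. With shCr EVs it fell by 0.38 on the log2 scale (SE 0.14, edgeR adjusted p = 0.0441). That call was lost when any 1 library other than Untreated 2 and shCr 1 was left out (edgeR adjusted p up to 0.157). Without library 1 with shCr EVs the fall was -0.61 (edgeR adjusted p = 5.79e-05). It was also lost in a model of only these 2 groups (edgeR adjusted p = 0.127). Of all stretches of 31 bases in S100a4, 49.2% are also present in Gm42674, a gene that shares 302 of its 584 exon bases on the same strand. Gm42674 held 2 to 15 counts per library, 0.0165% to 0.930% of those of S100a4, and how reads of the shared bases were assigned is uncertain.

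S100a6 (calcyclin), a growth-linked member that binds the product of Cacybp, was also abundant. Its levels were 786, 730 and 691 CPM in untreated cells, 538, 534 and 505 with shCon EVs, 874, 696 and 644 with shCr EVs and 220.2, 217 and 203 with CrOE EVs. The shCon and CrOE libraries lay below the untreated ones, whereas the shCr libraries lay on both sides of them. S100a6 fell 1.40-fold with shCon EVs (log2 fold change -0.48, SE 0.095, edgeR adjusted p = 0.00147) and 3.45-fold with CrOE EVs (-1.79, SE 0.098, edgeR adjusted p = 2.53e-09). With shCr EVs the difference was 0.0043 (95% interval -0.20 to 0.21, edgeR adjusted p = 0.980), and its sign turned under other scalings.

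S100a10 and S100a11 are the annexin partners of the family. S100a10 (p11), which has lost calcium binding and pairs with annexin A2, stood at 266, 225 and 241 CPM in untreated cells, 121, 119 and 120.4 with shCon EVs, 240.3, 167 and 157 with shCr EVs and 70.7, 65.5 and 63.7 with CrOE EVs. The shCr library at 240.3 CPM lay within the untreated range, and all other EV libraries lay below it. S100a10 fell 2.03-fold with shCon EVs (log2 fold change -1.02, SE 0.13, edgeR adjusted p = 4.60e-05), 1.30-fold with shCr EVs (-0.38, SE 0.13, edgeR adjusted p = 0.0335) and 3.66-fold with CrOE EVs (-1.87, SE 0.13, edgeR adjusted p = 3.04e-08). The call with shCr EVs was lost without any 1 of Untreated libraries 1 and 3 and shCr libraries 2 and 3 (edgeR adjusted p up to 0.126). It was also lost in a model of these 2 groups alone (edgeR adjusted p = 0.113), while without shCr library 1 the fall was -0.59.

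S100a11, which binds annexins A1 and A2, stood at 567, 516 and 540.1 CPM in untreated cells. It stood at 305, 306 and 323 CPM with shCon EVs, 382, 352 and 357 with shCr EVs and 95.3, 99.6 and 97.4 with CrOE EVs. No 2 of the 4 groups overlapped, in the order untreated, shCr, shCon and CrOE from high to low. S100a11 fell 1.74-fold with shCon EVs (log2 fold change -0.80, SE 0.053, edgeR adjusted p = 1.85e-07), 1.49-fold with shCr EVs (-0.57, SE 0.052, edgeR adjusted p = 2.90e-06) and 5.56-fold with CrOE EVs (-2.47, SE 0.055, edgeR adjusted p = 7.23e-13). Of its stretches of 31 bases, 48.9% are also present in other annotated genes, and the 6 such genes examined summed to at most 26 counts in a library.

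S100a13, S100a1 and S100a16 were less abundant. S100a13, which takes part in the release of FGF1 and interleukin 1 alpha without a signal peptide, stood at 11.4, 10.98 and 10.9 CPM in untreated cells, 5.62, 5.98 and 5.26 with shCon EVs, 8.67, 7.75 and 8.19 with shCr EVs and 1.55, 1.31 and 1.54 with CrOE EVs. As with S100a11, no 2 groups overlapped. It fell 1.98-fold, 1.35-fold and 7.55-fold with shCon, shCr and CrOE EVs (log2 fold changes -0.98, -0.44 and -2.92, SE 0.088, 0.085 and 0.10; edgeR adjusted p = 2.85e-06, 0.00135 and 3.16e-11).

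S100a1, known for calcium handling in muscle, stood at 5.97, 5.72 and 6.14 CPM in untreated cells, 3.36, 4.25 and 4.29 with shCon EVs, 6.13, 5.93 and 5.14 with shCr EVs and 0.603, 0.756 and 0.758 with CrOE EVs. The shCr and untreated libraries overlapped, and the others lay below them. S100a1 fell 1.497-fold with shCon EVs (log2 fold change -0.58, SE 0.12, edgeR adjusted p = 0.00246) and 8.35-fold with CrOE EVs (-3.06, SE 0.15, edgeR adjusted p = 8.44e-10). With shCr EVs it differed by -0.05 (95% interval -0.31 to 0.20, edgeR adjusted p = 0.749).

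S100a16, a broadly expressed member, stood at 3.08, 2.52 and 2.35 CPM in untreated cells, 1.22, 1.10 and 1.33 with shCon EVs, 2.04, 1.60 and 1.40 with shCr EVs and 0.127, 0.204 and 0.225 with CrOE EVs, where it had 4 to 8 counts per library. No EV library reached the untreated range. It fell 2.18-fold, 1.58-fold and 13.9-fold with shCon, shCr and CrOE EVs (log2 fold changes -1.12, -0.66 and -3.80, SE 0.20, 0.19 and 0.26; edgeR adjusted p = 0.000727, 0.0154 and 2.08e-08). The call with shCr EVs was lost without Untreated library 1 or without shCr library 2 or 3 (edgeR adjusted p up to 0.0707).

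S100a3, a cysteine-rich member known from the hair cuticle, went the other way with CrOE EVs. It stood at 1.28, 1.68 and 1.88 CPM in untreated cells, 0.966, 1.10 and 0.829 with shCon EVs, 1.37, 1.28 and 1.17 with shCr EVs and 3.71, 2.97 and 3.23 with CrOE EVs. All 3 CrOE libraries lay above, and all 3 shCon libraries below, the untreated ones. S100a3 rose 2.05-fold with CrOE EVs (log2 fold change 1.03, SE 0.17, edgeR adjusted p = 0.000113) and fell 1.67-fold with shCon EVs (-0.74, SE 0.20, edgeR adjusted p = 0.00993). The fall with shCon EVs was no call without Untreated library 3 (edgeR adjusted p = 0.0502), and with shCr EVs the difference was -0.34 (95% interval -0.75 to 0.06, edgeR adjusted p = 0.172). S100a3 had 23 to 117 counts per library. Gm42674 overlaps it as well, with counts equal to 5.13% to 42.9% of those of S100a3, and Gm23464 overlaps 117 of its exon bases on the opposite strand. Libraries were directional, but whether counting used the strand is not given in the sources used here, so sense and antisense reads may not be told apart.

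S100a5 and S100b were near the limit of detection. S100a5, found mainly in olfactory neurons, had 4, 12 and 4 counts in untreated cells, 2, 11 and 4 with shCon EVs, 12, 10 and 9 with shCr EVs and 1, 1 and 9 with CrOE EVs. The CPM of all groups overlapped, and none of the 6 comparisons was a call (edgeR adjusted p = 0.0782 to 0.763). S100b, a glial and melanocyte marker, had 0, 3 and 7 counts in untreated cells, 2, 0 and 1 with shCon EVs, 3, 1 and 2 with shCr EVs and 0, 0 and 2 with CrOE EVs. Every EV library was at or under a floor of 3 counts, and a difference was not detectable at this depth.

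Between EV groups, the question was whether CRIPTO in the donor cells went with the S100 levels of the recipient cells. No group is a separate control for the overexpressing line. In the CrOE comparisons, CRIPTO therefore cannot be told apart from other differences between donor lines or EV preparations. The shCr and shCon EVs also came from different donor lines, and the amount of EVs is not given. Between shCr and shCon EVs, CRIPTO likewise cannot be told apart from other differences between lines or preparations. Relative to shCon EVs, 6 of 9 tested S100 genes were higher with shCr EVs, against 5.22% of all tested genes, and none was lower, against 3.51% (edgeR's quasi-likelihood test, Benjamini-Hochberg adjusted p under 0.05). By DESeq2 too 6 of the 9 were higher and 0 lower, against 879 higher and 691 lower of the 14279 genes that passed the filter. An unadjusted edgeR p under 0.05 was found for 7 of the 9, all higher, and for 3206 of the 14279 tested genes in either direction. The groups did not overlap in 8 of the 9, all higher with shCr EVs, against 15.5% of all tested genes. The median log2 fold change was 0.53, beside 0.0043 over all tested genes. S100a4 was 1.85-fold higher (log2 fold change 0.88, SE 0.14, edgeR adjusted p = 0.00164), and 98.7% of all tested genes had a lower value. S100a10 (0.65, SE 0.13, edgeR adjusted p = 0.00736), S100a13 (0.54, SE 0.089, edgeR adjusted p = 0.00219) and S100a1 (0.53, SE 0.12, edgeR adjusted p = 0.0180) were higher as well.

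S100a6 was 1.40-fold higher with shCr than with shCon EVs (log2 fold change 0.49, SE 0.095, edgeR adjusted p = 0.00684), and S100a11 1.17-fold (0.22, SE 0.052, edgeR adjusted p = 0.0192). S100a16 (0.46, 95% interval 0.02 to 0.90, edgeR adjusted p = 0.203), S100a3 (0.39, -0.03 to 0.82, edgeR adjusted p = 0.267) and S100a5 (0.69, -0.80 to 2.19, edgeR adjusted p = 0.619) were no calls. In a model of these 2 groups alone, 2 of the 6 calls were kept, S100a4 and S100a13, and the other 4 had edgeR adjusted p = 0.0526 to 0.0766. S100a1 was also no call without shCon library 1 or shCr library 2, and S100a11 without shCon library 1 or 2 (edgeR adjusted p up to 0.0941). Without shCr library 1, which had the most S100a4, S100a6 and S100a10 of its group, all 6 were called and S100a4 was higher by 0.66, S100a6 by 0.34 and S100a10 by 0.43.

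**Figure D3:**
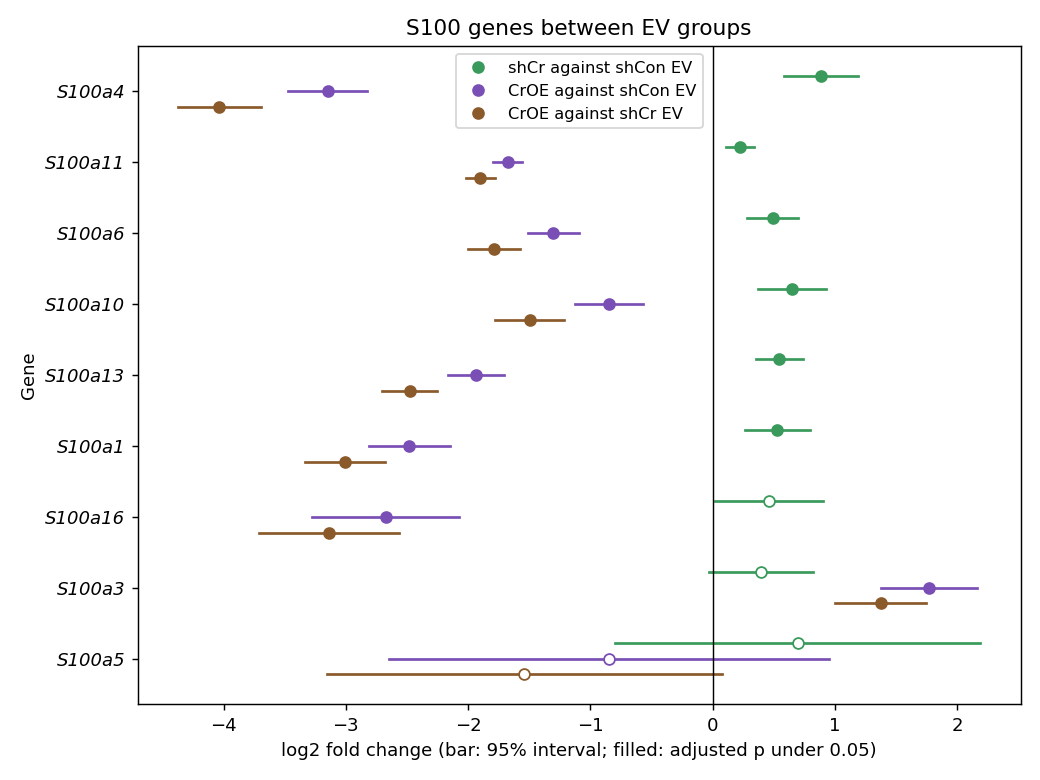
Log2 fold change (horizontal axis) of each tested S100 gene (vertical axis) between EV groups, with its 95% interval; filled points have an adjusted p under 0.05. The shCr against shCon values lie between 0.22 and 0.88, and the points of both CrOE comparisons lie left of 0 except in S100a3.

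Relative to shCon EVs, CrOE EVs went with 7 of 9 S100 genes lower and S100a3 higher, against 36.1% and 36.5% of all tested genes (edgeR's quasi-likelihood test, Benjamini-Hochberg adjusted p under 0.05). The median log2 fold change was -1.68, beside 0.0075 over all tested genes. S100a4 was 8.87-fold lower (log2 fold change -3.15, SE 0.15, edgeR adjusted p = 7.86e-10), S100a16 6.38-fold lower (-2.67) and S100a1 5.58-fold lower (-2.48). S100a13 (-1.93), S100a11 (-1.68), S100a6 (-1.30) and S100a10 (-0.85, SE 0.13, edgeR adjusted p = 5.75e-05) were lower by less. S100a3 was 3.41-fold higher (1.77, SE 0.18, edgeR adjusted p = 1.40e-06).

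Relative to shCr EVs, CrOE EVs again went with 7 of 9 lower and S100a3 higher, against 37.0% and 36.9% of all tested genes, with a median log2 fold change of -1.90 beside 0.0076. S100a4 was 16.4-fold lower (log2 fold change -4.03, SE 0.16, edgeR adjusted p = 8.64e-11), S100a16 8.79-fold (-3.14) and S100a1 8.04-fold (-3.01). S100a10 was again the called member with the smallest fall, at 2.82-fold (-1.50, SE 0.13, edgeR adjusted p = 2.55e-07). S100a3 was 2.59-fold higher (1.38, SE 0.17, edgeR adjusted p = 8.78e-06). In either direction, 73.7%, 72.6% and 73.9% of all tested genes were called in the CrOE comparisons with untreated cells, shCon and shCr EVs.

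The 10 genes summed to 2507 ± 173 CPM in untreated cells (SD, n = 3), 1370 ± 4.35 with shCon EVs, 2047 ± 371 with shCr EVs and 428 ± 14.6 with CrOE EVs. S100a4 made up 38.4% of that sum in untreated cells, 29.3% with shCon EVs, 35.9% with shCr EVs and 10.5% with CrOE EVs. The share of S100a6 was 29.4%, 38.4%, 36.1% and 49.8% in the same order, that of S100a11 21.6%, 22.7%, 18.0% and 22.8%, and that of S100a10 9.73%, 8.76%, 9.13% and 15.6%. The shares, and the ratio that follows, use CPM not divided by exon length. Per kilobase of exon, S100a11 exceeded S100a6 with CrOE EVs (191 against 156 CPM per kb). The ratio of S100a4 to S100a6, in CPM, was 1.21 to 1.37 in untreated libraries, 0.726 to 0.809 with shCon EVs, 0.918 to 1.09 with shCr EVs and 0.202 to 0.223 with CrOE EVs. The ranges of this ratio did not overlap between any 2 groups; no test was run on it.

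**Figure D4:**
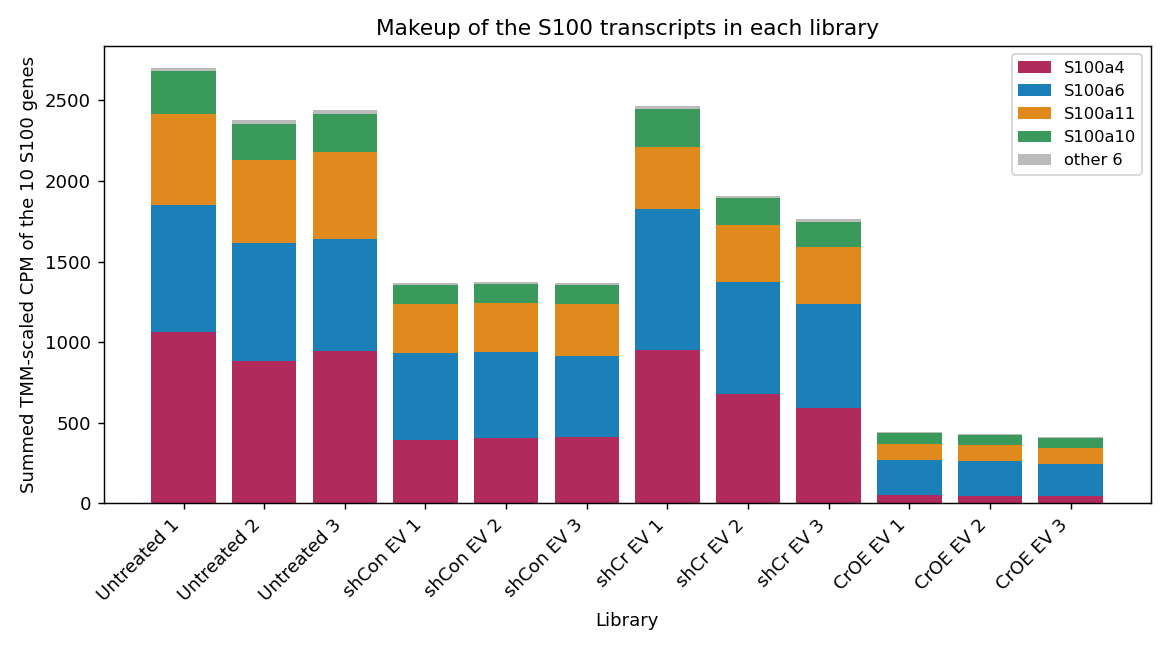
Summed TMM-scaled CPM of the 10 S100 genes (vertical axis) in each of the 12 libraries (horizontal axis), stacked by gene. The shCon bars are nearly equal in height, the shCr bars run from 1765 to 2468, and the S100a4 segment is thin in the CrOE bars.

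Among the members, S100a11 and S100a13 had the most alike profiles, with a root mean square difference of 0.22 between their log2 CPM, each centred on its own mean, over 12 libraries. S100a6 and S100a10 followed at 0.23, and the least alike pair was S100a3 and S100a4 at 2.27. Among 9636 tested genes with a mean log2 CPM of at least 3, those most like S100a4 were Mgst3 (0.19), Amigo2 (0.20), Gda (0.21), Enpp2 (0.25) and Chst15 (0.26). Enpp2, the gene of autotaxin, went from 442 CPM in untreated cells to 262, 377 and 20.1 with shCon, shCr and CrOE EVs. The genes most like S100a6 were Ccl2 (0.13), Mr1 (0.13), Fas (0.13), Btg2 (0.14) and Ggta1 (0.14). These are descriptions over libraries that share their groups.

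Between the outermost S100 genes of chromosome 3, 71 of 86 other annotated genes were in the table and 6 were tested. Relative to untreated cells, 2 of these 6 were lower with shCon EVs, 2 with shCr EVs and 3 with CrOE EVs, where 1 was higher. Of all tested genes, 20.2%, 18.8% and 37.0% were lower in these comparisons, and 36.7% were higher with CrOE EVs. Of 8 other S100 genes, 7 were in the table, all scarce. S100a8, a neutrophil member, stood at 1.60, 1.38, 2.17 and 0.363 CPM in untreated, shCon, shCr and CrOE groups and fell by 2.12 on the log2 scale with CrOE EVs (edgeR adjusted p = 1.16e-05). S100g, an intestinal calcium carrier, stood at 0.159, 0.801, 0.781 and 0.0478 CPM, at most 36 counts per library, and rose with shCon EVs (2.29, edgeR adjusted p = 0.00793) and shCr EVs (2.23, edgeR adjusted p = 0.00875). S100a7a stood at 1.35 to 1.87 CPM and was no call against untreated cells. S100a2, S100a9, S100a14 and S100z had 0 to 4 counts.

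The annexins, the membrane-binding partners of S100 proteins, were 10 of 12 tested. Relative to untreated cells, 5 fell and 1 rose with shCon EVs, 3 fell and 1 rose with shCr EVs, and 6 fell and 2 rose with CrOE EVs. Of all tested genes, 20.2%, 18.8% and 37.0% fell and 18.0%, 18.4% and 36.7% rose. Anxa2, partner of S100a10, fell from 775 ± 30.5 CPM to 539 ± 18.2, 518 ± 6.26 and 401 ± 10.8 with shCon, shCr and CrOE EVs (log2 fold changes -0.52, -0.58 and -0.95, edgeR adjusted p at most 3.31e-06). Anxa1, partner of S100a11, went from 638 ± 27.9 CPM to 525 ± 6.61, 658 ± 90.8 and 160.02 ± 4.70, a fall with shCon EVs (-0.28, edgeR adjusted p = 0.0142) and CrOE EVs (-1.99, edgeR adjusted p = 1.58e-10) but no call with shCr EVs (0.04, edgeR adjusted p = 0.693). Relative to shCon EVs, Anxa1 was higher with shCr EVs (0.32, edgeR adjusted p = 0.0238), while Anxa2 was no call (-0.06, edgeR adjusted p = 0.532). Anxa6 fell from 609 ± 16.8 CPM to 349.9 ± 12.4, 349 ± 17.0 and 233 ± 4.62, and Anxa11 fell with CrOE EVs (59.3 ± 1.09 to 38.2 ± 1.31 CPM) and was no call after the others.

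Of 15 other partners and receptors, 14 were tested, and 3 fell with shCon EVs, 2 fell and 1 rose with shCr EVs, and 7 fell and 2 rose with CrOE EVs, relative to untreated cells. The shares of all tested genes that fell were 20.2%, 18.8% and 37.0%, and those that rose with shCr and CrOE EVs 18.4% and 36.7%. Myh9, the non-muscle myosin heavy chain bound by S100a4, stood at 1403 ± 108 CPM and fell with CrOE EVs (log2 fold change -0.49, edgeR adjusted p = 0.00132). It was no call with shCon EVs (0.03, edgeR adjusted p = 0.840) or shCr EVs (-0.23, edgeR adjusted p = 0.126). Ahnak, a scaffold bound by S100a10, was no call in any of these 3 comparisons. Cacybp, partner of S100a6, fell with shCon EVs (78.7 ± 5.04 to 60.7 ± 2.17 CPM, edgeR adjusted p = 0.0184) and was no call after shCr or CrOE EVs. Fgf1, cargo of S100a13, had 1 to 6 counts and was not tested, and Ager, the gene of RAGE, stood at 1.58 to 2.85 CPM and was no call against untreated cells.

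Of 12 other EF-hand calcium sensors, 11 were tested, and 8 fell with shCon EVs, 5 with shCr EVs and 8 with CrOE EVs, where 1 rose, relative to untreated cells. Against these counts, 20.2%, 18.8% and 37.0% of all tested genes fell, and 36.7% rose with CrOE EVs. Sri, the gene of sorcin, fell from 85.5 ± 3.92 CPM to 75.2 ± 3.04 with shCon EVs and 37.4 ± 0.579 with CrOE EVs. The log2 medians of these lists with CrOE EVs were -0.64 for annexins, -0.26 for partners and -0.28 for EF-hand sensors, against -2.47 for the S100 genes. Fibroblast markers had a median of -2.18, and the 3 tested genes of the other S100 genes -1.63. Medians of the cell type marker lists ran from -3.75 (adipocyte, 1 gene tested) to 4.70 (epithelial, 2 genes tested). The difference between lists was not tested.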

How the data were processed

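Poly(A) RNA of 12 libraries was sequenced from directional libraries, per the labels' protocols. The values the authors deposited, 1 row for each gene symbol, are unscaled estimated counts, of which 39.8% were not whole. The submitters' processing notes name featureCounts and mm39, with no version; the use of strand by the counter is not given in the sources used here. Columns headed with CRIPTO's name matched no other group and were taken as CrOE by elimination. In 27 rows a spreadsheet had turned the symbol into a date (at most 0.259% of a library's counts); none is an S100 gene.

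The design had assumed raw counts; values were rounded instead. Genes were kept by filterByExpr, scaled by TMM and tested with edgeR 4.0.16 (R 4.3.3, glmQLFit and glmQLFTest) on all 12 libraries with a mean per group, leaving 8 residual degrees of freedom. The Benjamini-Hochberg adjustment ran over 14279 genes per comparison, and an adjusted p under 0.05 was a call. Standard errors and 95% intervals were derived from the F statistic. Floors cover counting error only.

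The members, gene lists and the rule for named genes (all members, stated partners, the 5 genes most like S100a4 and S100a6) were chosen with earlier results of these data known. For 1 gene of the EF-hand list, which the rule also names, values of its own are not reported here. GENCODE M21 gave exon lengths and shared 31-base stretches; RefSeq (GRCm38.p6) gave promoters and gene order. On simulated counts of 14000 genes for shCon EV against untreated, edgeR found 178 of 200 genes given a change. It also called 12 genes given none. The simulation used the same spread setting for every gene and changed only those 200, so it does not measure error rates in the real data. Alternatives were other scalings, DESeq2 1.42.0, other filters, rounding down, a 2-group model, a fold threshold, the replicate block and each library left out.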

Additional observations from a re-analysis of the deposited data

How the results depend on the processing

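The counts of S100 genes called (8, 5, 8, 6, 8 and 8 for shCon, shCr and CrOE EVs against untreated cells, shCr against shCon, CrOE against shCon and CrOE against shCr EVs) were the same numbers under median-of-ratios factors, library totals, upper-quartile scaling, DESeq2, no filter and rounding down. With at least 10 counts in every library they were 7, 4, 7, 6, 7 and 7, since fewer genes were tested. Requiring a fold change of at least 2 left 863, 897, 4245, 108, 3884 and 4223 genes in the same order. The S100 counts at that threshold were 3, 0, 8, 0, 7 and 8. A model of only the 2 groups left 641 genes between shCr and shCon EVs, and 3 S100 genes for shCr EVs against untreated cells and 2 for shCr against shCon EVs; the cause was not tested. Leaving out 1 library gave 632 to 1396 genes between shCr and shCon EVs (632, 666 and 688 without shCon 2, 3 and 1) and 2 to 5 S100 genes for shCr EVs against untreated cells, with 2 without Untreated 1, shCr 2 or shCr 3 and 3 without Untreated 3. The sign of S100a6 with shCr EVs turned under median-of-ratios factors (-0.0016), library totals (-0.0094), DESeq2 (-0.0017), no filter (-0.0035), at least 10 counts (-0.0016), the replicate block (-0.0023) and the 2-group model (-0.0010), and ran from -0.14 to 0.094 with 1 library left out. With 1 library left out, S100a1 with shCr EVs ran from -0.11 to 0.020 and S100a5 with shCon EVs from -1.18 to 0.42, neither a call. S100a5 became a call in the 3 CrOE comparisons without CrOE 3. Same-numbered libraries did not deviate together (correlations -0.20 to 0.32, over 0.1 in 5 of 18 pairs), and 4 of 12 libraries correlated best with their own number. With the replicate block the calls were 5691, 5529, 10657, 1281, 10511 and 10677, against 5447, 5320, 10524, 1247, 10373 and 10552 without it, and the S100 counts were 8, 5, 8, 6, 8 and 8. Scalings moved the median of all genes by under 0.1. Depth limits S100a5 and S100b, at 12 counts or fewer per library.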
